A study of Danio rerio with 6 samples.

Results

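The genes described here encode the folding and secretion machinery of the endoplasmic reticulum (ER). They were chosen by name from a list of 48 entries covering chaperones, protein import, glycosylation, stress signalling and export. Rows of the deposited tables were matched by symbol, ignoring case, or by the symbol without its final letter, and PDIA4 was matched by its identifier. Of the 48 entries, 39 were found, and they gave 41 gene rows of 25131. SEC61A1 and DNAJB9 each had a pair of rows, which are given with their identifiers because reads of close paralogs could fall on either copy. The entry kdelr2b was matched through KDELR2. The entries pdia3, p4hb, hspa5, calr3b, ssr1, srp14, ostc, dad1 and atf4a are not analysed here.

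Transcripts were counted in single cells sorted for mCherry from larval zebrafish of the TL strain carrying Tg(mpeg1:mCherry), a reporter in which the promoter of mpeg1, a gene of macrophages, drives red fluorescence. All larvae were raised in PTU, a compound that blocks pigment. The injured groups had a needle puncture of the dorsal trunk muscle at 4 days post fertilisation, and cells were taken from the dissected injury site at 1, 2 and 3 days post injury (dpi), at ages of 5, 6 and 7 days. The uninjured group came from whole larvae at 4 days, so tissue and age differ from the injured groups along with the injury. There was 1 uninjured library, 2 libraries at 1 dpi, 1 at 2 dpi and 2 at 3 dpi, and each library was 1 plate of 384 wells. Whether the replicate libraries came from separate larvae is not stated, and a p-value here reflects the spread between libraries, which could be technical.

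Proteins bound for secretion, membranes or lysosomes enter the ER through the SEC61 channel, lose their signal peptide and receive sugar chains. Chaperones, lectins and disulfide isomerases then fold them before vesicles carry them to the Golgi. When unfolded proteins build up, the sensors ATF6, IRE1 and PERK switch on the unfolded protein response, which raises chaperone transcripts through ATF6, XBP1 and ATF4. Macrophages secrete cytokines, proteases and complement proteins through this route. The roles given below are those known from mammalian cells.

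Wells with 1000 to 50000 transcripts were used, 1640 of 2304. Libraries held 1338581 to 4403299 transcripts in 196 to 351 such wells, with medians of 3401 to 11144 transcripts per well. In the uninjured library 18 wells above 50000 transcripts held 69.997% of its transcripts and were left out. Wells in which the granulocyte genes npsn and EPX together made up at least 0.2% of transcripts are called granulocytes. Their share was 1.81% in the uninjured library, 8.65% and 8.67% in those of 1 dpi, 18.2% in that of 2 dpi, and 20.7% and 25.3% in those of 3 dpi. The macrophage label was checked against 22 rows of macrophage markers, none of which was at 0 in all libraries. Their summed level was 8154 CPM (transcripts divided by the total of the wells used and multiplied by 1000000) in the uninjured library, 8391 and 8395 CPM at 1 dpi, 6928 CPM at 2 dpi, and 4837 and 3735 CPM at 3 dpi. Among wells that were not granulocytes, 92.3% in the uninjured library, 93% and 98.9% in those of 1 dpi, 95.8% in that of 2 dpi, and 79.4% and 87.1% in those of 3 dpi held a transcript of mpeg1, marco or mfap4. Keratinocyte markers, 12 rows, stood at 12026 CPM in replicate 1 of 3 dpi and at 876 to 2485 CPM in the other 5 libraries. Metaphocyte markers, 6 rows of an epithelium-like mpeg1-positive cell type, stood at 1362 CPM in the uninjured library, 530.4 and 98.95 CPM at 1 dpi, 127 CPM at 2 dpi, and 1264 and 1965 CPM at 3 dpi. Fibroblast markers, 19 rows, summed to 3415 CPM in the uninjured library and to 44.8 to 1160 CPM in the injured ones, and skeletal muscle markers, 16 rows, to 10680 CPM in the uninjured library and 29.1 to 144 CPM in the injured ones.

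The folding genes were high in the uninjured and 1 dpi libraries and low from 2 dpi on. The 12 rows of disulfide isomerases, luminal chaperones and lectin chaperones other than PDIA4, called the folding sum here, together held 1365 CPM in the uninjured library, 1249 and 1422 CPM at 1 dpi, 521 CPM at 2 dpi, and 356 and 254 CPM at 3 dpi. The sums of 2 and 3 dpi all lay below those of the uninjured and 1 dpi libraries. In sums over wells, fewer cells of a type and less RNA per cell cannot be told apart. The authors' protocol counts each transcript once at its 3′ end, so CPM is a level per transcript and is not divided by gene length.

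PDIA4, a disulfide isomerase of the ER lumen, led to the choice of this gene set because it falls after 1 dpi, so its values are a description and carry no test. Its level was 179 CPM in the uninjured library, 97.1 and 149 CPM at 1 dpi, 28.2 CPM at 2 dpi, and 15.02 and 7.66 CPM at 3 dpi. These levels rest on 440 transcripts in the uninjured library, on 130 and 256 in the libraries of 1 dpi, on 124 in that of 2 dpi, and on 21 and 11 in those of 3 dpi. Exact Poisson intervals at the 95% level, which cover counting error only, ran from 9.30 to 22.96 CPM and from 3.83 to 13.7 CPM in the 3 dpi libraries, against 81.1 to 115 CPM and 131 to 168 CPM in the 1 dpi libraries. The means were 11.3 ± 5.201 CPM at 3 dpi and 123 ± 36.7 CPM at 1 dpi (SD, n = 2 each), and the log2 difference was -3.40. That the groups and intervals lie apart follows from how this gene was chosen and is no evidence of a fall.

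The other disulfide isomerase found, PDIA6, followed the same order of times. It stood at 91.1 CPM in the uninjured library, 76.9 and 114 CPM at 1 dpi, 29.8 CPM at 2 dpi, and 25.03 and 8.36 CPM at 3 dpi. Both 3 dpi libraries were below both 1 dpi libraries, and PDIA6 had a log2 difference of -2.44 (SE 0.56, adjusted p = 0.00809 by the edgeR quasi-likelihood test with Benjamini-Hochberg adjustment, 2 libraries against 2), which passed the test.

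Of the 9 rows of luminal chaperones and cochaperones, 5 fell between 1 and 3 dpi, 4 did not pass the test and none rose. Over all genes tested 3.33% fell and 4.83% rose. HSP90B1, the ER member of the HSP90 family and the most abundant of them, held 356 CPM in the uninjured library, 333 and 386 CPM at 1 dpi, 110 CPM at 2 dpi, and 90.1 and 93.4 CPM at 3 dpi. The 2 and 3 dpi libraries lay below the others, and the uninjured library lay between those of 1 dpi. HSP90B1 fell by 1.99 on this log2 scale (SE 0.49, edgeR adjusted p = 0.0115). HYOU1, a large HSP70-like protein that recharges the ER chaperone BiP, held 290 CPM in the uninjured library, 233 and 232 CPM at 1 dpi, 81.3 CPM at 2 dpi, and 69.4 and 35.5 CPM at 3 dpi. It fell by 2.11 (SE 0.51, edgeR adjusted p = 0.0104).

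The cochaperones DNAJB11, DNAJC3 and SDF2L1 work with BiP: DNAJB11 hands it unfolded clients, DNAJC3 stimulates its ATPase, and SDF2L1 binds DNAJB11. The level of DNAJB11 was 96.3 CPM in the uninjured library, 97.9 and 112 CPM at 1 dpi, 35.9 CPM at 2 dpi, and 29.3 and 11.1 CPM at 3 dpi, and it fell by 2.32 (SE 0.54, edgeR adjusted p = 0.00847). For dnajc3a the values were 49.2 CPM in the uninjured library, 32.1 and 29.7 CPM at 1 dpi, 16.8 CPM at 2 dpi, and 2.86 and 2.09 CPM at 3 dpi. Those 3 dpi levels rest on 4 and 3 transcripts, against 43 and 51 at 1 dpi. The log2 difference of dnajc3a, -3.64 (SE 0.75, edgeR adjusted p = 0.00345), was the largest fall among the members tested. SDF2L1 stood at 43.1 CPM in the uninjured library, 39.6 and 54.1 CPM at 1 dpi, 8.18 CPM at 2 dpi, and 10.01 and 3.48 CPM at 3 dpi, and fell by 2.75 (SE 0.66, edgeR adjusted p = 0.0101). In each of these genes the 3 dpi libraries lay below the 1 dpi libraries.

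The other 4 luminal rows did not pass. MANF, a small stress-induced protein that binds BiP, averaged 8.55 ± 8.14 CPM at 3 dpi and 36.9 ± 0.457 CPM at 1 dpi (SD, n = 2 each), a log2 difference of -2.03 (SE 0.68, edgeR adjusted p = 0.0512). CRELD2, a stress-induced isomerase-like protein, had a difference of -1.44 (SE 0.89). Of the pair of DNAJB9 rows, which encode a cochaperone of BiP and IRE1, ENSDARG00000016886 had a difference of -1.38 (SE 0.57) and ENSDARG00000052072 one of 0.64 (SE 0.75). The second row was the one folding gene whose 3 dpi mean was above its 1 dpi mean, and its libraries overlapped. Its difference was -0.43 without replicate 1 of 3 dpi.

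Calreticulin and calnexin, the lectins that hold freshly glycosylated proteins during folding, fell as well. CALR stood at 56.1 CPM in the uninjured library, 48.6 and 69.8 CPM at 1 dpi, 19.985 CPM at 2 dpi, and 6.44 and 11.1 CPM at 3 dpi, and it fell by 2.80 (SE 0.59, edgeR adjusted p = 0.00393). CANX stood at 246 CPM in the uninjured library, 268 and 331 CPM at 1 dpi, 171 CPM at 2 dpi, and 65.1 and 52.96 CPM at 3 dpi, and it fell by 2.34 (SE 0.50, edgeR adjusted p = 0.00455). The groups of 1 and 3 dpi lay apart for both, and the 2 dpi library lay between them.

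**Figure D1:**
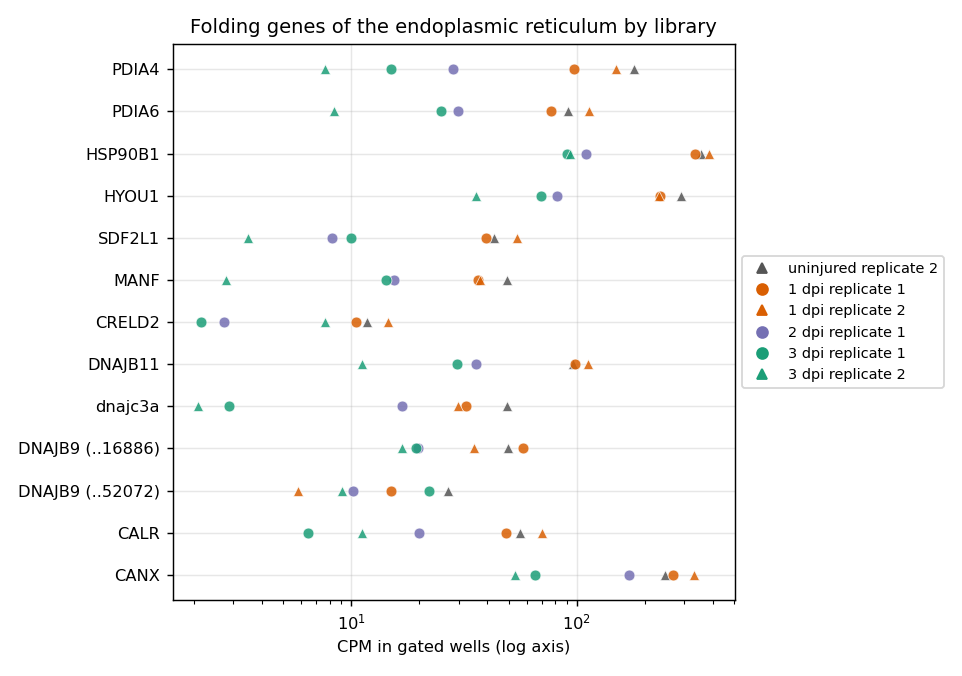
Level of each of the 13 folding rows in each library, in CPM over the wells used, on a log axis. Each point is a library, with colours for the group and shapes for the replicate. The 3 dpi and 2 dpi points lie left of the uninjured and 1 dpi points for most rows, as for HSP90B1 (110 CPM at 2 dpi and 90.1 and 93.4 CPM at 3 dpi, against 333 and 386 CPM at 1 dpi), while those of DNAJB9 (ENSDARG00000052072) overlap.

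Counted over the whole gene set, PDIA4 set aside, 37 of 40 rows had enough transcripts to be tested. SSR3, KDELR3 and SEC13 did not. Of the 37, 14 fell between 1 and 3 dpi and 0 rose, at an adjusted p under 0.05 with edgeR, and 21 had an unadjusted p under 0.05. Over all 13013 genes tested, 433 fell, which is 3.33%, and 628 rose, which is 4.83%, while 3440 had an unadjusted p under 0.05. With library size as the only scaling the calls over all genes were 64 lower and 19 higher, and with DESeq2 they were 304 lower and 288 higher. The median log2 difference of the tested members was -1.44, and 32 of them were below 0, while the median of all genes tested was 0.23. The 14 calls rest on having both libraries of 1 dpi: without replicate 1 or replicate 2, 0 members were called, at medians of -1.30 and -1.36, and 19 and 9 of all genes fell. Without replicate 1 of 3 dpi, 27 were called, and 11.5% of all genes fell. The calls of atf6, SPCS2, KDELR2 and RPN1 were kept in 3, 4, 4 and 8 of 15 alternative settings, and the other 10 in 10 to 12 of 14 or 15. With library size as the only scaling 5 were called. When the libraries of 1 and 3 dpi were fitted alone, 0 members and 0 genes of any kind were called. There 8650 genes were tested, 2502 had an unadjusted p under 0.05, and the members' median was -1.20. In the main fit the lone uninjured and 2 dpi libraries have their own means and add no residual degrees of freedom. Why the calls were lost was not tested.

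Genes of entry into the ER showed a smaller and uneven difference. The 15 rows of translocon, signal recognition particle, signal peptidase and oligosaccharyltransferase together held 1659 CPM in the uninjured library, 2457 and 2704 CPM at 1 dpi, 1598 CPM at 2 dpi, and 1736 and 1347 CPM at 3 dpi. The 1 dpi libraries were the highest, and the 3 dpi libraries lay on both sides of the uninjured one. None of the 6 tested rows of the SEC61 channel and its associated SSR proteins passed the test, in either direction, and 0 had an unadjusted p under 0.05. Over all genes tested 3.33% fell and 4.83% rose, so 0 calls in 6 rows does not set these rows apart. The median difference of the 6 rows was -0.60.

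SEC61A1 (ENSDARG00000021669), which encodes the pore of the channel and was the most abundant of these rows, held 263 CPM in the uninjured library, 284 and 368 CPM at 1 dpi, 280 CPM at 2 dpi, and 399 and 397 CPM at 3 dpi. Its difference was 0.28 (SE 0.49, edgeR adjusted p = 0.733). The other SEC61A1 row, ENSDARG00000005675, had a difference of -0.74 (SE 0.49). Differences for the small subunits were -0.45 (SE 0.48) for SEC61B and 0.67 (SE 0.50) for SEC61G, which was -0.06 without replicate 1 of 3 dpi. Those for the associated proteins were -0.92 (SE 0.49) for SSR2 and -0.86 (SE 0.48) for SSR4. SRP9, a subunit of the particle that brings ribosomes to the channel, held 21.1 CPM in the uninjured library, 26.1 and 23.3 CPM at 1 dpi, 8.63 CPM at 2 dpi, and 4.29 and 22.99 CPM at 3 dpi. Its 3 dpi replicates disagreed, and its difference was -1.003 (SE 0.69, edgeR adjusted p = 0.353).

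Of the 4 signal peptidase rows, 2 fell, against 3.33% of all genes tested. SPCS2, a non-catalytic subunit, stood at 132 CPM in the uninjured library, 183 and 193 CPM at 1 dpi, 88.8 CPM at 2 dpi, and 65.1 and 72.5 CPM at 3 dpi, and it fell by 1.48 (SE 0.48, edgeR adjusted p = 0.0455). SEC11A, a catalytic subunit, stood at 73.98 CPM in the uninjured library, 126 and 190 CPM at 1 dpi, 52.9 CPM at 2 dpi, and 47.9 and 42.5 CPM at 3 dpi, and it fell by 1.80 (SE 0.49, edgeR adjusted p = 0.0209). The 1 dpi libraries of both genes lay above the libraries of every other group. SPCS1 (-0.92, SE 0.50) and SPCS3 (-0.97, SE 0.49) did not pass.

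Oligosaccharyltransferase, which attaches the sugar chain that calreticulin and calnexin read, was represented by 3 rows. Of these 2 fell, against 3.33% of all genes tested. DDOST stood at 106 CPM in the uninjured library, 199 and 192 CPM at 1 dpi, 84.7 CPM at 2 dpi, and 48.6 and 33.4 CPM at 3 dpi, and it fell by 2.24 (SE 0.50, edgeR adjusted p = 0.00648). RPN1 stood at 117 CPM in the uninjured library, 196 and 390 CPM at 1 dpi, 100.4 CPM at 2 dpi, and 101 and 75.9 CPM at 3 dpi, and it fell by 1.70 (SE 0.50, edgeR adjusted p = 0.0290). In CPM, replicate 1 of 1 dpi lay nearer to all the other groups than to replicate 2 for RPN1, but all other libraries were lower than both. RPN2, a scarce row at 6.44 to 19.8 CPM, had a difference of -0.72 (SE 0.73).

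Genes of export and retrieval were lower at 3 dpi than at 1 dpi in their sum, 354 and 236 CPM at 3 dpi against 791 and 756 CPM at 1 dpi. Of the 4 tested rows, 1 fell, against 3.33% of all genes tested. KDELR2, a receptor that returns escaped chaperones to the ER, stood at 61.8 CPM in the uninjured library, 89.6 and 67.5 CPM at 1 dpi, 61.3 CPM at 2 dpi, and 32.2 and 16.7 CPM at 3 dpi, and it fell by 1.66 (SE 0.52, edgeR adjusted p = 0.0413). TMED10, a cargo receptor of vesicles between ER and Golgi and the most abundant of these genes, held 318 CPM in the uninjured library, 359 and 377 CPM at 1 dpi, 220.1 CPM at 2 dpi, and 170.2 and 120 CPM at 3 dpi. Its 3 dpi libraries lay below all others, but its difference of -1.32 (SE 0.49, edgeR adjusted p = 0.0777) did not pass. The same held for its partner TMED2 (-1.35, SE 0.49, edgeR adjusted p = 0.0727) and for the cargo receptor SURF4 (-1.60, SE 0.55, edgeR adjusted p = 0.0565).

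Transcripts of the stress regulators did not follow the chaperones. Their sum was 1170 CPM in the uninjured library, 1128 and 1136 CPM at 1 dpi, 1611 CPM at 2 dpi, and 1315 and 1119 CPM at 3 dpi. The gene atf4b, a transcription factor translated when PERK is active, was the most abundant, at 561 CPM in the uninjured library, 443 and 564 CPM at 1 dpi, 833 CPM at 2 dpi, and 582 and 497 CPM at 3 dpi. The groups overlapped, and the difference was 0.11 (SE 0.51, edgeR adjusted p = 0.915; -0.27 without replicate 1 of 3 dpi). XBP1, whose RNA is cut by IRE1, averaged 268 ± 73.8 CPM at 3 dpi and 271 ± 76.7 CPM at 1 dpi (SD, n = 2 each). Counts do not separate its cut and uncut forms. DDIT3, a factor induced in prolonged stress, had a difference of 0.53 (SE 0.48, edgeR adjusted p = 0.494), with levels of 373 and 377 CPM at 3 dpi against 249 and 265 CPM at 1 dpi. The exception was atf6, the sensor that is cut in the Golgi to release a transcription factor, which fell by 1.51 (SE 0.50, edgeR adjusted p = 0.0492).

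Of the 3 rows of ER-associated degradation, which sends misfolded proteins to the proteasome, none passed the test. Over all genes tested 3.33% fell and 4.83% rose, so this count does not set these rows apart. HERPUD1, a stress-induced organiser of that complex, held 188 CPM in the uninjured library, 131 and 89.1 CPM at 1 dpi, 193 CPM at 2 dpi, and 124 and 52.3 CPM at 3 dpi. Its groups overlapped, with a difference of -0.27 (SE 0.51), which was 0.36 without replicate 2 of 3 dpi. The ubiquitin ligase SYVN1 (-1.77, SE 0.67, edgeR adjusted p = 0.0795) and its partner SEL1L (-1.62, SE 0.66, edgeR adjusted p = 0.110) had larger differences on 10 to 13 transcripts per 3 dpi library.

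**Figure D2:**
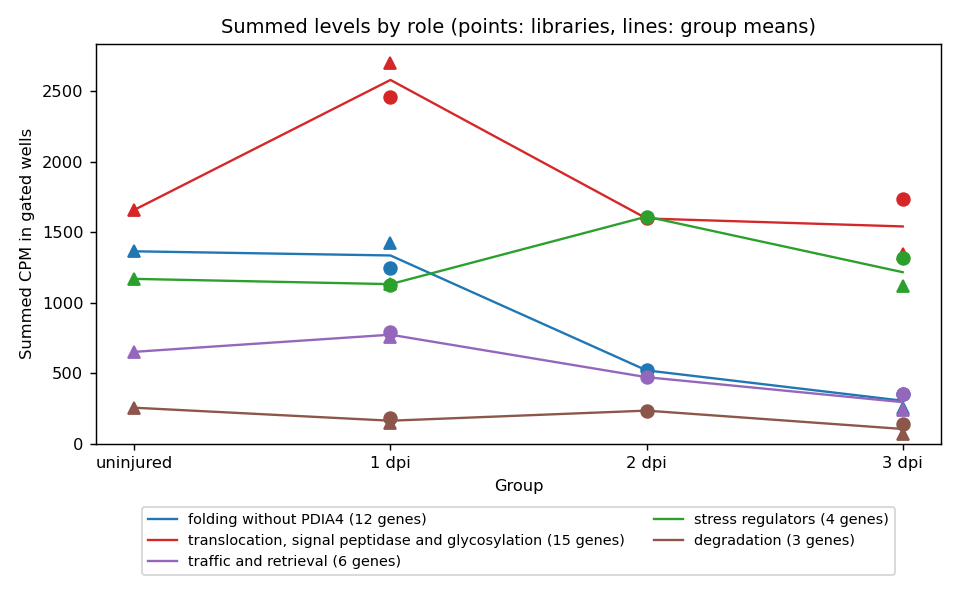
Summed CPM of the gene set by role over the wells used, with circles for replicate 1, triangles for replicate 2 and lines through the group means. The folding sum, without PDIA4, stood at 356 and 254 CPM at 3 dpi, against 1249 and 1422 CPM at 1 dpi, while the sum of the stress regulators was 1315 and 1119 CPM at 3 dpi and 1128 and 1136 CPM at 1 dpi.

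**Figure D3:**
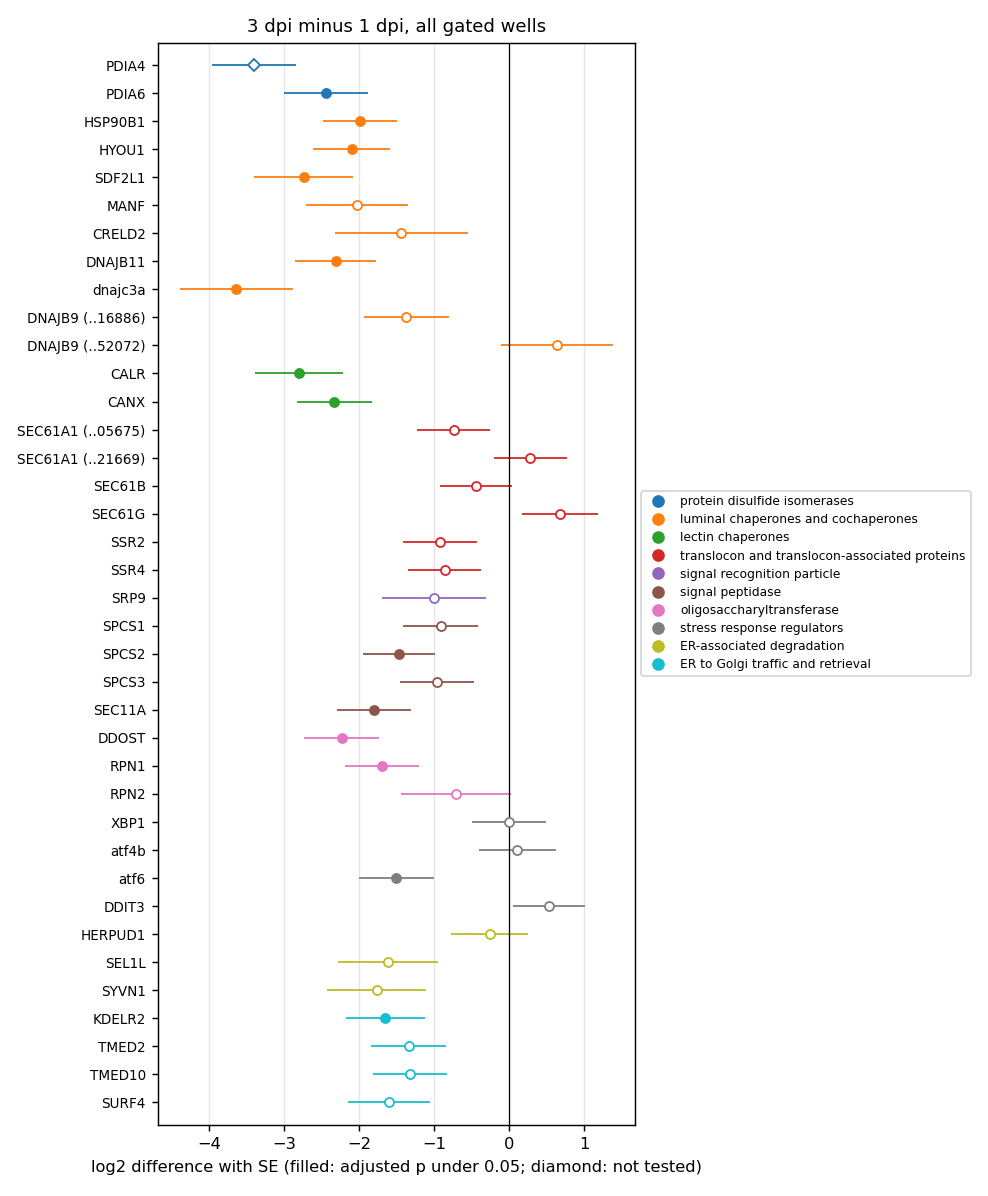
Log2 difference of each row at 3 dpi minus 1 dpi with its SE, coloured by role. Filled points passed the edgeR test at an adjusted p under 0.05, open circles did not, and the open diamond is PDIA4, which was not tested. The isomerases, most chaperones and the lectins lie between -1.38 and -3.64, and the 6 translocon rows between -0.92 and 0.67.

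The share of granulocytes differed between the times, so the same contrast was made over the wells that were not granulocytes. There 12 of 37 tested members fell and 0 rose, with 21 at an unadjusted p under 0.05. Over all 12911 genes 338 fell (2.62%) and 621 rose (4.81%), with 3283 at an unadjusted p under 0.05. The 12 were the 14 above without atf6 (-1.54, SE 0.52, edgeR adjusted p = 0.0536) and KDELR2 (-1.54, SE 0.54, edgeR adjusted p = 0.0634). The members' median was -1.32, against 0.24 for all genes. With library size as the only scaling the calls over all genes were 42 lower and 18 higher, and without the uninjured library 61 lower and 75 higher. Without either library of 1 dpi 0 members were called, without replicate 1 of 3 dpi 27 (11.7% of all genes fell), without the uninjured library 3, and with library size alone 2.

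Levels of the folding genes in these wells were close to those in all wells. HSP90B1 stood at 97.1 and 99.7 CPM at 3 dpi against 345 and 398 CPM at 1 dpi, and fell by 1.93 (SE 0.50, edgeR adjusted p = 0.0166). CANX stood at 71.4 and 55.5 CPM at 3 dpi against 278 and 340 CPM at 1 dpi, and fell by 2.26 (SE 0.51, edgeR adjusted p = 0.00723). In the same wells macrophage markers summed to 5538 and 4555 CPM at 3 dpi against 8926 and 8711 CPM at 1 dpi, and metaphocyte markers to 1439 and 2405 CPM at 3 dpi against 558 and 100.4 CPM at 1 dpi. When wells were further limited to those with a transcript of mpeg1, marco or mfap4, 10 of 37 members fell and their median was -1.24, while of all 12532 genes 175 fell (1.40%) and 243 rose (1.94%), with a median of 0.22. That limit was set after the data were seen, and the part of the other cell types in the difference was otherwise not tested.

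The difference was also visible in single wells. Among wells that were not granulocytes, the median well had a folding sum of 890.2 CPM in the uninjured library, 987 and 1123 CPM at 1 dpi, 317 CPM at 2 dpi, and 79.7 and 104 CPM at 3 dpi. No transcript of these 12 rows was found in 8.12% of the uninjured wells, in 15.6% and 3.35% of those of the 1 dpi libraries, in 13.6% of those of 2 dpi, and in 48.7% and 47.3% of those of the 3 dpi libraries. With every well thinned to 1000 transcripts, the share with such a transcript was 57.6% without injury, 60.5% and 63.1% in the 1 dpi libraries, 31.7% in the 2 dpi library, and 17.1% and 19.6% in the 3 dpi libraries. All cells use these genes, so no cell type gives a background share for free RNA. The same thinned wells held on average 1.64 entry transcripts without injury, 2.49 and 2.89 in the 1 dpi libraries, 1.63 in the 2 dpi library, and 1.84 and 1.61 in the 3 dpi libraries.

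The same wells were also divided by depth. In wells of 1000 to 5000 transcripts the folding sum was 205 and 255 CPM at 3 dpi, against 1262 and 1093 CPM at 1 dpi. In wells of 5000 to 50000 transcripts it was 448 and 289 CPM at 3 dpi, against 1333 and 1490.4 CPM at 1 dpi. The 2 dpi library, with the deepest wells, held 343 CPM in the shallow range, from 37 wells, and 579 CPM in the deep range, from 250 wells.

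Wells with a PDIA4 transcript tended to hold more of the other folding genes. Those 12 rows summed to 1698 CPM in wells with PDIA4 and 846 CPM in wells without it in the uninjured library. At 1 dpi the sums were 1612 and 1090 CPM in replicate 1, and 1787 and 898 CPM in replicate 2, again with PDIA4 and without it. The 2 dpi library had 1171 CPM in 43 wells with PDIA4 and 404 CPM in 244 wells without it. At 3 dpi 13 wells with PDIA4 held 810 CPM in replicate 1, against 336 CPM in 186 wells without it, and 8 wells with PDIA4 held 280.4 CPM in replicate 2, against 277 CPM in 216 wells without it. The ratio was thus 1.48 to 2.90 in 5 libraries and 1.01 in replicate 2 of 3 dpi, while the same ratio for the entry genes was 1.16 to 1.31 in the 6 libraries. Wells with PDIA4 were deeper, with median totals of 4741 to 18411 transcripts, against 3132 to 11372 in wells without it, and the part of depth was not tested.

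**Figure D4:**
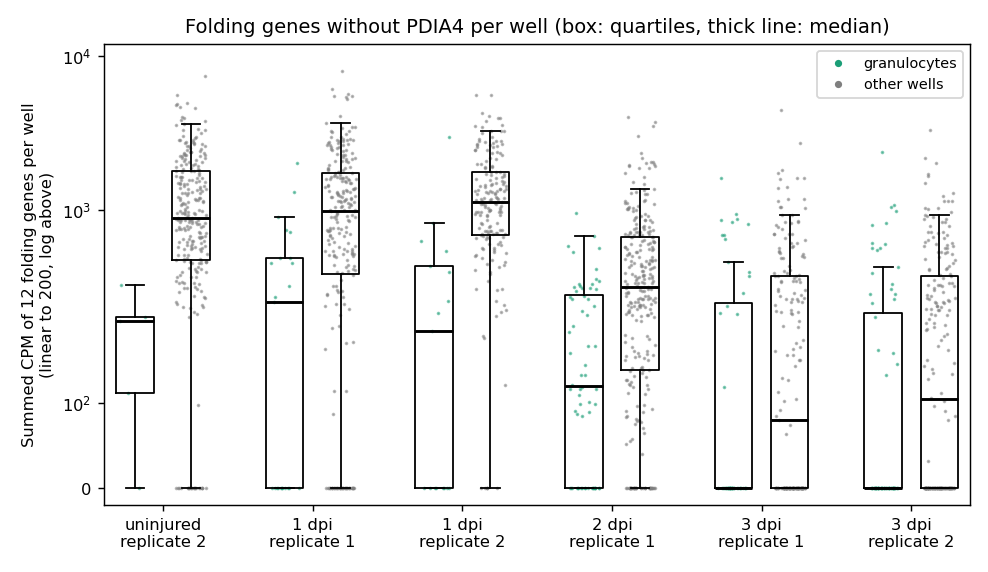
Summed CPM of the 12 folding rows other than PDIA4 in each well, granulocytes left of other wells in each library, on an axis that is linear to 200 and logarithmic above. Boxes show quartiles, thick lines medians and points wells. Medians of the other wells were 890.2 CPM in the uninjured library, 987 and 1123 CPM at 1 dpi, 317 CPM at 2 dpi, and 79.7 and 104 CPM at 3 dpi.

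In CPM, the 2 dpi library already had low folding levels, but it is 1 library and was not tested on its own. The averaged contrast given next also holds the 3 dpi difference, so its calls do not show a fall by 2 dpi. With 2 and 3 dpi averaged, a contrast added after the data were seen, 9 of 37 members fell against 1 dpi and 0 rose, while 99 of all genes fell, which is 0.761%. These 9 were PDIA6, HSP90B1, HYOU1, SDF2L1, DNAJB11, dnajc3a, CALR, SEC11A and DDOST. SDF2L1 had the largest difference among them, -2.64 (SE 0.58, edgeR adjusted p = 0.0144). CANX, at 171 CPM at 2 dpi, did not pass in this contrast (-1.59, SE 0.45, edgeR adjusted p = 0.0607).

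Set against the uninjured library, most members did not pass the test in the mean of the 3 injured groups. Of the 37 tested, 24 lay below 0, among them all 9 luminal chaperone rows (median -1.09). Of 37 tested, 1 fell and 0 rose, while over all genes 419 fell (3.22%) and 29 rose (0.223%). With DESeq2 146 genes fell and 29 rose. The lone uninjured and 2 dpi libraries are assumed to vary like the others. The members' median was -0.35, against -0.05 for all genes, a value that moved to -0.16 with library size as the only scaling. The gene that fell was dnajc3a (-2.04, SE 0.60, edgeR adjusted p = 0.0404). No member was called with DESeq2, with RLE factors, with library size alone, with thinned wells, or without either 1 dpi library. Without replicate 1 of 3 dpi 7 were called, where 6.22% of all genes fell, and without replicate 2 of 3 dpi 3, where 6.21% fell. PDIA4 is described as -2.26. HYOU1 (-1.39, SE 0.49, edgeR adjusted p = 0.139) and HSP90B1 (-1.09, SE 0.48, edgeR adjusted p = 0.401) had negative differences that did not pass, and 5 of the 6 tested translocon rows had positive ones, up to 0.67 for SEC61B (SE 0.56). At 1 dpi alone the folding sum of 1249 and 1422 CPM lay on both sides of the uninjured 1365 CPM, and the entry sum of 2457 and 2704 CPM lay above the uninjured 1659 CPM. With 1 uninjured library from whole larvae, injury, age and tissue cannot be told apart.

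Summed over wells, granulocytes held less of most of the machinery than the other wells of the same plates. The comparison used the 5 libraries with at least 10 granulocytes, each with a sum per class, and 29 of 40 rows had enough transcripts. Of these, 17 were lower in granulocytes and 1 was higher, with edgeR and the library as a block, while over all 6028 genes 1200 were lower (19.9%) and 720 higher (11.9%). The median log2 difference was -0.97 for the members and -0.27 for all genes. With wells thinned to 1000 transcripts, which left 16 members tested, 6 were lower and 2 higher, where 25.6% of the 1451 genes tested were lower and 19.9% higher.

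Values below are in the order of 1 dpi replicates 1 and 2, 2 dpi, and 3 dpi replicates 1 and 2. Among the folding genes, HYOU1 stood at 23.4, 108, 16.4, 20.7 and 21.3 CPM in granulocytes, against 247, 237, 90.6, 77.2 and 39.01 CPM in other wells, a difference of -1.94 (SE 0.35, edgeR adjusted p = 3.96e-07). DNAJB11 stood at 35.05, 30.9, 5.45, 10.3 and 0 CPM in granulocytes, against 102, 116, 40.2, 32.4 and 13.9 CPM in other wells (-2.25, SE 0.54, edgeR adjusted p = 0.000210). Granulocytes were the lower class in every library for both, and in the other wells both genes also fell between 1 and 3 dpi. DNAJB11 was found in only 2, 1, 3, 2 and 0 granulocyte wells, so its granulocyte levels rest on few transcripts. HSP90B1 stood at 164, 92.8, 39.97, 46.5 and 67.5 CPM in granulocytes, against 345, 398, 120, 97.1 and 99.7 CPM in other wells (-1.29, SE 0.28, edgeR adjusted p = 2.82e-05). In thinned wells HSP90B1 was found in 17.4, 17.6, 1.56, 7.69 and 9.21% of granulocytes, against 25.5, 29.6, 9.41, 5.03 and 8.93% of other wells. Its call was kept in 12 of 13 alternative settings, at differences of -1.55 to -0.60. CANX stood at 129, 108, 69.03, 25.9 and 42.6 CPM in granulocytes, against 278, 340, 185, 71.4 and 55.5 CPM in other wells (-1.24, SE 0.29, edgeR adjusted p = 0.000140). PDIA6 and the DNAJB9 row ENSDARG00000016886 were lower too, by differences of -1.72 (SE 0.54) and -1.93 (SE 0.64). These also rest on few transcripts: PDIA6 was found in 1, 0, 5, 3 and 2 granulocyte wells, and this DNAJB9 row in 0, 1, 3, 0 and 2. PDIA4 rested on 1, 2, 12, 2 and 0 granulocyte transcripts and is described as -1.48 (SE 0.51). Granulocyte wells were shallower, with median totals of 2206, 4200, 8649, 3339 and 3320 transcripts. Those of the other wells were 3457, 9015, 12329, 4101 and 4255. After thinning, 26.1, 41.2, 9.38, 23.1 and 15.8% of granulocytes held a transcript of the 12 folding rows without PDIA4. The shares of the other wells were 60.5, 63.1, 31.7, 17.1 and 19.6%. Granulocytes thus had the higher share in replicate 1 of 3 dpi.

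Most translocon rows differed between the classes. Of the 6 translocon rows 5 were lower in granulocytes, against 19.9% of all genes tested, SEC61G being the exception (-0.21, SE 0.30). The lower call of SEC61A1 (ENSDARG00000005675) was kept in 5 of 13 alternative settings. That row was higher in granulocytes in replicate 2 of 1 dpi, at 170 CPM against 161 CPM in other wells. SSR2 stood at 70.1, 124, 109, 98.3 and 81.7 CPM in granulocytes, against 413, 417, 287, 272 and 185 CPM in other wells, a difference of -1.62 (SE 0.25, edgeR adjusted p = 1.86e-09). SSR4 stood at 152, 77.3, 79.9, 93.1 and 60.4 CPM in granulocytes, against 311, 259, 184, 190.1 and 140.4 CPM in other wells (-1.25, SE 0.27, edgeR adjusted p = 2.26e-05). SSR2 and SSR4 belong to the complex that sits beside the channel and helps some signal sequences in, and for both the granulocyte value was below that of the other wells in each library. For SSR2 the 2 classes did not overlap across libraries, and for SSR4 they did. SEC61B stood at 175, 201, 92.7, 93.1 and 110.1 CPM in granulocytes, against 269.8, 292, 208, 264 and 167 CPM in other wells (-0.95, SE 0.25, edgeR adjusted p = 0.000764). SEC61A1 (ENSDARG00000021669) stood at 199, 263, 138, 259 and 231 CPM in granulocytes, against 289.7, 373, 301, 422 and 438 CPM in other wells (-0.84, SE 0.22, edgeR adjusted p = 0.000853).

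Oligosaccharyltransferase subunits were among the lowest. DDOST stood at 58.4, 46.4, 25.4, 0 and 3.55 CPM in granulocytes, against 208, 198, 93.2, 56.4 and 40.7 CPM in other wells (-2.33, SE 0.39, edgeR adjusted p = 3.93e-08). RPN1 stood at 105, 92.8, 30.9, 15.5 and 56.8 CPM in granulocytes, against 202, 402, 110.3, 115 and 80.6 CPM in other wells (-1.57, SE 0.30, edgeR adjusted p = 1.71e-06). The granulocyte value was the lower one in each library for both subunits. Of the 4 signal peptidase rows, SPCS3 was lower (-0.9996, SE 0.36, edgeR adjusted p = 0.0194), and SPCS1, SPCS2 and SEC11A, at -0.31, -0.28 and -0.47, did not pass. The cargo receptor TMED2 stood at 164, 124, 85.4, 62.1 and 56.8 CPM in granulocytes, against 292, 256, 177, 140.3 and 81.5 CPM in other wells (-0.97, SE 0.27, edgeR adjusted p = 0.00179). TMED10 was lower by a difference of -0.63 (SE 0.24), a call kept in 6 of 13 alternative settings.

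The regulators divided. DDIT3 stood at 117, 30.9, 271, 295 and 306 CPM in granulocytes, against 258, 275, 385, 385 and 394 CPM in other wells (-0.80, SE 0.23, edgeR adjusted p = 0.00251), lower in granulocytes in all 5 libraries. XBP1, named because it was the one member higher in granulocytes, stood at 537, 92.8, 411, 652 and 380.1 CPM in granulocytes, against 310.5, 221, 343, 266 and 175 CPM in other wells (0.56, SE 0.21, edgeR adjusted p = 0.0288). It was higher in 4 of 5 libraries and lower in replicate 2 of 1 dpi, where 17 granulocytes gave 6 XBP1 transcripts. No member was called higher without the 2 dpi library, without either 3 dpi library, with DESeq2 or with no filter on low counts. HERPUD1 had a difference of 0.59 (SE 0.26, edgeR adjusted p = 0.0734) and atf4b one of -0.12 (SE 0.19).

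**Figure D5:**
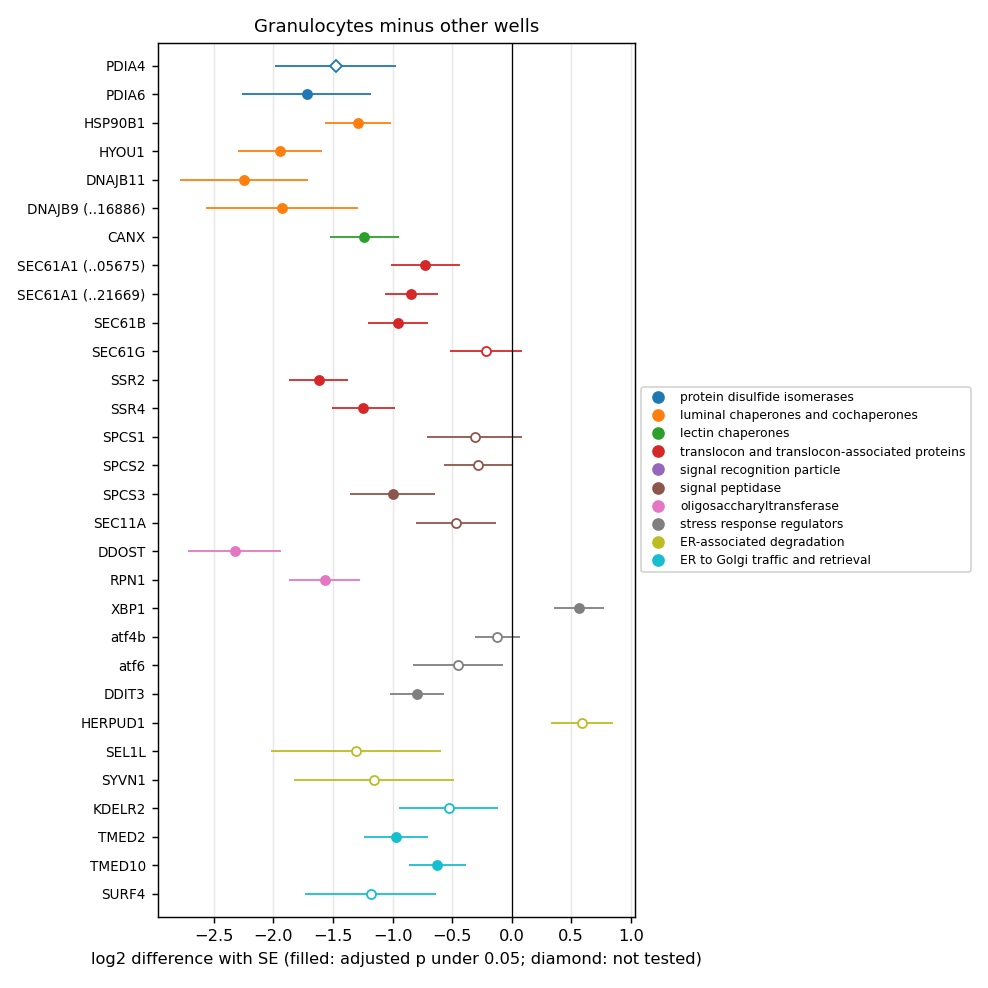
Log2 difference of each row in granulocytes minus other wells with its SE, over 5 libraries with the library as a block and coloured by role. Filled points passed the edgeR test, open circles did not, and the open diamond is PDIA4, which was not tested. Folding, translocon and oligosaccharyltransferase rows lie below 0, down to -2.33 for DDOST, and XBP1 and HERPUD1 lie above 0 at 0.56 and 0.59.

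Whether the change between 1 and 3 dpi differed between granulocytes and other wells was tested with an interaction term, added after the data were seen. Of 8197 genes 5 were called, which is 0.061%, and of 36 members tested 0 were called. In granulocytes the folding sum was 374 and 386 CPM at 1 dpi, 167 CPM at 2 dpi, and 145 and 159.9 CPM at 3 dpi. The members' interaction differences, granulocytes minus other wells, had a median of 0.89, against 0.72 for all genes. At 64685 to 85595 granulocyte transcripts per 1 dpi library, scarce members such as SDF2L1 (-2.25, SE 3.57) left differences too wide to read.

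Other genes of the pathway were taken from 4 lists of folding enzymes, entry and glycosylation, stress sensing and degradation, and coat and traffic genes, with 134 entries, 115 rows found and 100 tested. Between 1 and 3 dpi 19 fell and 3 rose, against 3.33% and 4.83% of all genes, with a median difference of -1.02. By list, 5 of 27 folding enzymes, 4 of 17 entry and glycosylation genes, 2 of 23 stress and degradation genes and 8 of 33 coat and traffic genes fell. LRPAP1, a chaperone of lipoprotein receptors, stood at 7.15 and 2.79 CPM at 3 dpi against 49.3 and 86.7 CPM at 1 dpi (-3.73, SE 0.65, edgeR adjusted p = 0.000579). FKBP2, a prolyl isomerase of the ER, stood at 25.03 and 26.5 CPM at 3 dpi against 125.5 and 132 CPM at 1 dpi (-2.35, SE 0.51, edgeR adjusted p = 0.00473). Next by adjusted p came kdelr2a (-2.03, SE 0.49), a second retrieval receptor, TMED5 (-2.24, SE 0.55), a vesicle cargo receptor, PDIA5 (-2.20, SE 0.56), a further disulfide isomerase, and DPM1 (-2.35, SE 0.60), which makes the mannose donor for sugar chains.

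The 3 pathway genes that rose did so unevenly. The collagen chaperone SERPINH1 (ENSDARG00000019949) had 17 transcripts at 3 dpi and 0 at 1 dpi, at least 6.11-fold higher against a floor of 3 transcripts over the group, and stood at 380.5 CPM in the uninjured library. Fibroblast markers were also higher at 3 dpi, at 1160 and 493 CPM, than at 1 dpi, at 63.5 and 44.8 CPM. The order differed among the later libraries. SERPINH1 stood at 9.77 CPM at 2 dpi and 5.01 and 6.97 CPM at 3 dpi, while fibroblast markers summed to 277 CPM at 2 dpi. The part of fibroblasts in the result was not tested. The membrane-bound factor creb3l3a stood at 50.8 and 255 CPM at 3 dpi against 16.4 and 29.7 CPM at 1 dpi (2.56, SE 0.56, edgeR adjusted p = 0.00642). TMED1 (ENSDARG00000017255) stood at 125 and 697 CPM at 3 dpi against 83.7 and 100.1 CPM at 1 dpi (1.99, SE 0.54, edgeR adjusted p = 0.0223). The other TMED1 row, ENSDARG00000031325, was not among the genes that rose. For creb3l3a and TMED1 (ENSDARG00000017255), replicate 2 of 3 dpi was far above replicate 1.

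Granulocytes were lower than other wells in 23 of 77 tested pathway genes and higher in 1, against 19.9% and 11.9% of all genes tested. The lower ones by smallest adjusted p were PPIB (-1.37, SE 0.24), TXNDC5 (-2.48, SE 0.53), FKBP2 (-2.31, SE 0.50), OST4 (-1.66, SE 0.38), kdelr2a (-1.60, SE 0.38) and PDIA5 (-3.02, SE 0.73), which encode prolyl and disulfide isomerases, a small oligosaccharyltransferase subunit and a retrieval receptor. The higher one was CHAC1 (0.65, SE 0.17, edgeR adjusted p = 0.00117), an enzyme that degrades glutathione and is induced through ATF4. Against the uninjured library, the 2 genes that fell of 100 were both SERPINH1 rows, and 0 rose. Over all genes tested in that contrast 3.22% fell and 0.223% rose, so these counts do not set the pathway apart.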

How the data were processed

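Single mCherry-positive cells were sequenced by SORT-seq, a plate form of CEL-Seq2 that counts 3′ ends with molecular identifiers. The files hold expected counts as deposited, a transcript estimate by the authors for every gene in every well, whole at low values and fractional above. Per the submitters' processing notes, BWA and the genome build Zv9 were used. How reads were counted and identifiers filtered, and with which annotation, is not given in the sources used here, so no coordinates are printed. Spike-ins, 1.19% to 16.1% of a library, were left out. No doublet caller was run. Wells above 50000 transcripts were left out instead, except in the alternative with wells from 500 transcripts. Every plate lists the same 384 well barcodes.

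Cells are not replicates, so expected counts, rounded to whole numbers, were added up per library. Sums were tested with edgeR 4.0.16 in R 4.3.3 (TMM, filterByExpr by group, robust glmQLFit, glmQLFTest, Benjamini-Hochberg, threshold 0.05 on the adjusted p). All 6 libraries were fitted together, each group with its own mean, leaving 2 residual degrees of freedom and a biological coefficient of variation of 45.5% over all wells and 47.5% without granulocytes. The granulocyte fit had the library as a block, 4 residual degrees of freedom and 27.4%. An SE is the absolute log2 difference divided by the square root of F. Replicate libraries were no copies of each other: their chi-square per degree of freedom was 11.6 at 1 dpi and 19.0 at 3 dpi, above the noise of counting transcripts. Each library sums different cells, so these values cannot separate the sampling of cells from other spread. The scripts were tested on simulated data. At 8-fold changes edgeR recovered 73.5% of 200 changed genes for 3 dpi minus 1 dpi over all wells (11793 genes) and 61.0% for injured minus uninjured (12002 genes). Scarce genes were not changed in the simulation. Smaller changes, such as the members' median log2 difference of -1.44, were not simulated, so their recovery is not known.

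The members, roles and lists were chosen with earlier results of these data known. Per-library values are given for PDIA4, for up to 12 called members per comparison by smallest adjusted p, and for the most abundant member of each role. Of the pathway lists, up to 6 called genes per direction are named. Alternatives were RLE factors, library size alone, DESeq2 1.42.0, no filter, wells from 500 transcripts, wells thinned to 1000, each library left out, a replicate block, 1 and 3 dpi alone, and granulocyte thresholds of 0.1% and 0.5%. The alternative with wells from 500 transcripts had no upper limit, so it included the wells above 50000 transcripts. Symbols came from a table of identifiers that matched 19001 of 25131 rows. Many symbols are those of the human counterpart.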

Additional observations from a re-analysis of the deposited data

How the results depend on the processing

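Directions of the folding genes held more widely than their calls. For 3 dpi minus 1 dpi over all wells, the count of members that fell, 14, was 5 with library size alone, 0 with the libraries of 1 and 3 dpi alone, 9 with 2 and 3 dpi averaged, and 0 to 27 with a library left out. The count of all genes called, 1061, was 558 with RLE factors, 83 with library size alone, 592 with DESeq2, 693 with thinned wells, 2047 with the replicate block, 0 with 1 and 3 dpi alone, 153 with 2 and 3 dpi averaged, and 26 to 3829 with a library left out. Without granulocytes the 12 members became 2 with library size alone, 0 with 1 and 3 dpi alone, 4 with 2 and 3 dpi averaged, and 0 to 27 with a library left out. The 959 genes became 60 with library size alone, 529 with DESeq2, 577 with thinned wells, 1794 with the replicate block, 0 with 1 and 3 dpi alone (2178 at an unadjusted p under 0.05), 85 with 2 and 3 dpi averaged, 418 with macrophage-transcript wells, and 10 to 3956 with a library left out. In the averaged contrast without granulocytes 43 of 12911 genes fell, which is 0.333%. The averaged contrast, the macrophage-transcript wells and the interaction were chosen after seeing the data. The setting with wells from 500 transcripts had no upper limit and so took in the 18 uninjured wells above 50000 transcripts. For injured minus uninjured the 448 genes became 224 with library size alone, 175 with DESeq2, 2316 with wells from 500 transcripts, 147 with thinned wells, and 314 to 916 with a library left out. Its 1 member became 0 with RLE factors, library size alone, DESeq2 or thinned wells, and 0 to 7 with a library left out. For granulocytes the 1920 genes became 660 and the 17 lower members 6 with thinned wells. The 1 higher member became 2 with library size alone, with wells from 500 transcripts, with thinned wells or with a threshold of 0.1%, 0 with no filter or DESeq2, and 0 to 2 with a library left out.

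With the replicate block, 19 members fell over all wells, where 6.88% of all genes fell, and 18 without granulocytes, where 5.81% fell. Over genes, the difference between replicates 1 and 2 at 1 dpi correlated with that at 3 dpi at 0.249. Whether same-numbered libraries of 1 and 3 dpi shared a batch is not stated and was not tested. XBP1, at -0.0048, was 0.029 with RLE factors, 0.011 with DESeq2, 0.39 with thinned wells, 0.15 with 1 and 3 dpi alone, 0.17 with 2 and 3 dpi averaged, and -0.60 to 0.42 with a library left out. HERPUD1 was 0.25 with 2 and 3 dpi averaged and -1.35 to 0.36 with a library left out. SEC61G was -0.22 with 2 and 3 dpi averaged and -0.057 to 1.34 with a library left out. With a library left out, atf4b ranged over -0.27 to 0.41 and DNAJB9 (ENSDARG00000052072) over -0.43 to 1.53. The cause was not tested. Depth limits the scarce members, such as dnajc3a with 3 and 4 transcripts per 3 dpi library.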

Other observations

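The 18 uninjured wells above 50000 transcripts were left out of all comparisons except the alternative with wells from 500 transcripts. Their folding sum, without PDIA4, was 742 CPM, against 1365 CPM in the wells used. Across these wells it ranged from 165 to 1707 CPM, with a median of 518 CPM. Their PDIA4 level was 84.3 CPM, against 179 CPM in the wells used, and their HSP90B1 level 235 CPM, against 356 CPM. Entry genes summed to 1168 CPM in these wells, against 1659 CPM in the wells used.

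Wells that were not granulocytes were also divided by whether they held a transcript of a cell-cycle gene (mki67, top2a, cdk1, plk1, ccnb1, ccna2, aurka, aurkb, pcna, mcm2, mcm5 or rrm2, as far as found). Wells with such a transcript made up 52.03% without injury, 50.6% and 55.9% in the 1 dpi libraries, 42.2% in the 2 dpi library, and 24.6% and 29.5% in the 3 dpi libraries. At 3 dpi the folding sum was 416 CPM with such a transcript and 373 CPM without in replicate 1, and 301 CPM with and 262 CPM without in replicate 2. At 1 dpi it was 1409 CPM with and 1113 CPM without in replicate 1, and 1239 CPM with and 1835 CPM without in replicate 2. At 2 dpi it was 709 CPM with and 426 CPM without. Wells with a cell-cycle transcript were deeper in every library, and the part of depth was not tested.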
